A study of Mus musculus with 764 samples.

Results

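The genes that fold, check and export proteins in the endoplasmic reticulum (ER), together with the sensors and downstream factors that respond when folding fails, were followed across single IL-10-producing CD4+ T cells. They form a list of 33 genes, named for their roles and not for their values, and all 33 were found among 23997 gene rows. By role the list holds 17 folding genes, 3 stress sensors, 4 downstream factors of the stress response (the transcription factors Xbp1, Atf4 and Ddit3 and the pseudokinase Trib3), 4 genes of ER-associated degradation and 5 genes of protein translocation into the ER. The cells were CD4+ T cells sorted for IL-10 eGFP from C57BL/6 mice with 2 reporters, eGFP for Il10 and mRFP for Foxp3. All mice had received an antibody against CD3, which stimulates T cells through their receptor and expands IL-10 producers, so untreated cells were not compared. Cells came from the small intestine or the spleen, and the sort kept Foxp3+ cells as well.

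Of 764 cells, 190 were small intestine cells and the rest spleen cells. They fell into 4 sets by plate and well. Spleen cells of plate p1 sat in columns 1 to 12 (set p1 left, 12 columns of 16 wells) and 13 to 24 (set p1 right, 190 cells), those of plate p2 in columns 1 to 12 (set p2, 12 columns of 16 wells), and the small intestine cells in columns 13 to 24 of p2. A limit on depth removed 19 small intestine cells and 12, 6 and 13 cells of p1 left, p1 right and p2, and cells called S or G2M by their expression, 35 in the small intestine and 47, 39 and 56 in the spleen sets, were then set aside. This kept 71.6% of small intestine cells and 69.3%, 76.3% and 64.1% of the spleen sets. Median reads per kept cell ranged from 316521 to 366140 over the 4 sets, and median genes with a read from 3102.5 to 3331. A Foxp3 read was present in 63.9% of the cells of p1 left, 17.9% of p1 right, 6.50% of p2 and 6.62% of the small intestine. No animal was named for any cell, so each tissue is 1 sample, no test between tissues was possible, and the spread of the 3 spleen sets is given as a yardstick in place of replicate error. Values are counts scaled to the same total of reads in every cell (CPM), averaged over cells with equal weight.

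Of 6 T cell markers, Cd3d, Cd3e, Cd3g, Cd4 and Lck each had reads in 97.6% or more of the cells of every set. The sixth, Cd2, an adhesion molecule, was read in 79.4% of the cells of the small intestine and 99.5% of those of the spleen, at 381.4 against 1764 CPM. Of 10 B or plasma cell markers, 9 or 10 were read in under 5% of the cells of each set, and Igj and Tnfrsf17 were at 0 in all of them. The same held for 6 of 7 myeloid markers, and Csf3r was at 0 in all sets. The exception, Cd68, was read in 36.8% of the cells of the small intestine and 14.96% of those of the spleen. Summed myeloid markers averaged 103.6 CPM in the small intestine against 41.4 to 43.9 CPM in the spleen sets. Of 7 epithelial markers, 5 passed 5% of small intestine cells, with Lgals4 at 16.9% the highest, against 2 in the spleen. Summed epithelial markers averaged 37.6 CPM in the small intestine and 19.5 to 64.9 CPM in the spleen sets.

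As background, proteins bound for the cell surface or for secretion, cytokines among them, enter the ER through the Sec61 channel and fold there with the help of chaperones such as BiP (Hspa5), lectin chaperones and disulfide isomerases. When unfolded proteins accumulate, 3 sensors in the ER membrane start the unfolded protein response: IRE1 (Ern1) splices the mRNA of Xbp1, PERK (Eif2ak3) slows translation and favours synthesis of ATF4, and ATF6 is cut to release a transcription factor. XBP1 and ATF6 raise chaperones and degradation factors, while ATF4 induces CHOP (Ddit3). Plasma cells are the lymphocytes best known for a dependence on this programme, and T cells use it upon activation. The counts used here do not separate spliced from unspliced Xbp1 mRNA and hold nothing on protein or phosphorylation.

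Promoters of many chaperone genes carry the ER stress response element (ERSE), and its letters are shown for the members that hold them. A match of letters shows neither binding nor regulation in these cells. Promoter windows of 300 bases, from 250 before to 50 after the start of the gene, were matched for 28 of the 33 members in RefSeq (GRCm38.p6). Hyou1, Manf, Atf6, Sec61a1 and Ssr2 were not matched. The ERSE, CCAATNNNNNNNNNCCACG on either strand, was found in 8 members, namely Hspa5, Hsp90b1, Calr, Canx, Pdia6, Dnajc3, Creld2 and Syvn1, and in 0.137% of 27025 genes. The related ERSE-II, ATTGGNCCACG, was found in Herpud1 and, past the start, in Dnajb11, and in 0.0444% of all genes. TGACGTGG, a letter string bound by ATF6 and XBP1 and called UPRE here, was found in no member window and in 0.714% of genes. TTGCATCA, a string of the kind bound by ATF4 with C/EBP partners, was found in Herpud1 and in 1.03% of genes. In the printed stretches no searched string overlapped another. The stretches below run 5′ to 3′ on the strand of the gene, with the fixed letters of ERSE or ERSE-II in capitals, and CGTGG with ATTGG marks an element on the opposite strand.
Hspa5 (chr2:34772015-34772053, + strand): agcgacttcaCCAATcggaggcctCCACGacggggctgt
Hsp90b1, far site (chr10:86705628-86705666, - strand): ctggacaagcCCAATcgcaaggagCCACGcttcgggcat
Hsp90b1, near site (chr10:86705523-86705561, - strand): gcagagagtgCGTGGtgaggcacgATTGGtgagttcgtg
Calr (chr8:84847065-84847103, - strand): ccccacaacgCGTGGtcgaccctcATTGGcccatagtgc
Canx (chr11:50325790-50325828, - strand): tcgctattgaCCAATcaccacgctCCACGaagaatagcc
Pdia6 (chr12:17266481-17266519, + strand): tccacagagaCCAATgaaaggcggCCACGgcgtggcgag
Dnajc3 (chr14:118937817-118937855, + strand): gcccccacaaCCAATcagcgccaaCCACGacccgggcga
Creld2 (chr15:88819510-88819548, + strand): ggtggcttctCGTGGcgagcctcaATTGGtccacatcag
Syvn1 (chr19:6046522-6046560, + strand): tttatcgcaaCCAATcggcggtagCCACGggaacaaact
Herpud1, ERSE-II (chr8:94386367-94386397, + strand): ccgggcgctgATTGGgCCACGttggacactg

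Over all members, the programme had nearly the same level in both tissues, and the roles within it went different ways. The module mean, the average of log2(CPM + 1) over the 33 members in a cell, was 4.22 ± 1.06 (SD over cells) in the small intestine. It was 4.39 ± 1.12 in p1 left, 4.44 ± 1.27 in p1 right and 3.92 ± 1.08 in p2. Cells ranged from 2.26 to 7.84 in the small intestine and from 1.46 to 7.80 in the spleen, so the tissues overlapped nearly completely. The small intestine minus the spleen was -0.05, which was smaller than the range of 0.52 between the spleen sets, and the value was +0.29 against p2 alone. Members took 0.843% of the reads of a small intestine cell and 0.955%, 0.949% and 0.748% in the spleen sets, and the median cell had a read of 18 members in the small intestine and of 17 to 20 in the spleen sets.

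Split by role, the same per-cell means were lower in the small intestine for folding and translocation and higher for sensors, downstream factors and degradation. The folding mean was 4.40 in the small intestine against 4.99, 5.14 and 4.47 in the spleen sets, a difference of -0.48 from all spleen cells but of -0.07 from p2. The translocation mean was 4.83 against 5.72, 5.52 and 5.18. Taken instead as log2 of mean CPM plus 1, small intestine over spleen, the median of the 5 translocation genes was -0.13. Over all genes with at least 10 CPM it was -0.23, so by that measure translocation was not lower than the middle of all genes. The median of the 17 folding genes was -0.45, lower than that middle. Against p2 alone it was -0.10 beside -0.23 for all genes, so folding was not lower than the middle there. The sensor mean was 2.59 against 1.49, 1.33 and 0.98, and its difference from all spleen cells, 1.31, was wider than the range of 0.51 between spleen sets. The mean of the downstream factors was 3.82 against 2.97, 3.08 and 2.79, a difference of 0.86 beside a spleen range of 0.29. The degradation mean was 4.26 against 3.77, 3.81 and 3.37, a difference of 0.60 beside a spleen range of 0.45.

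**Figure D1:**
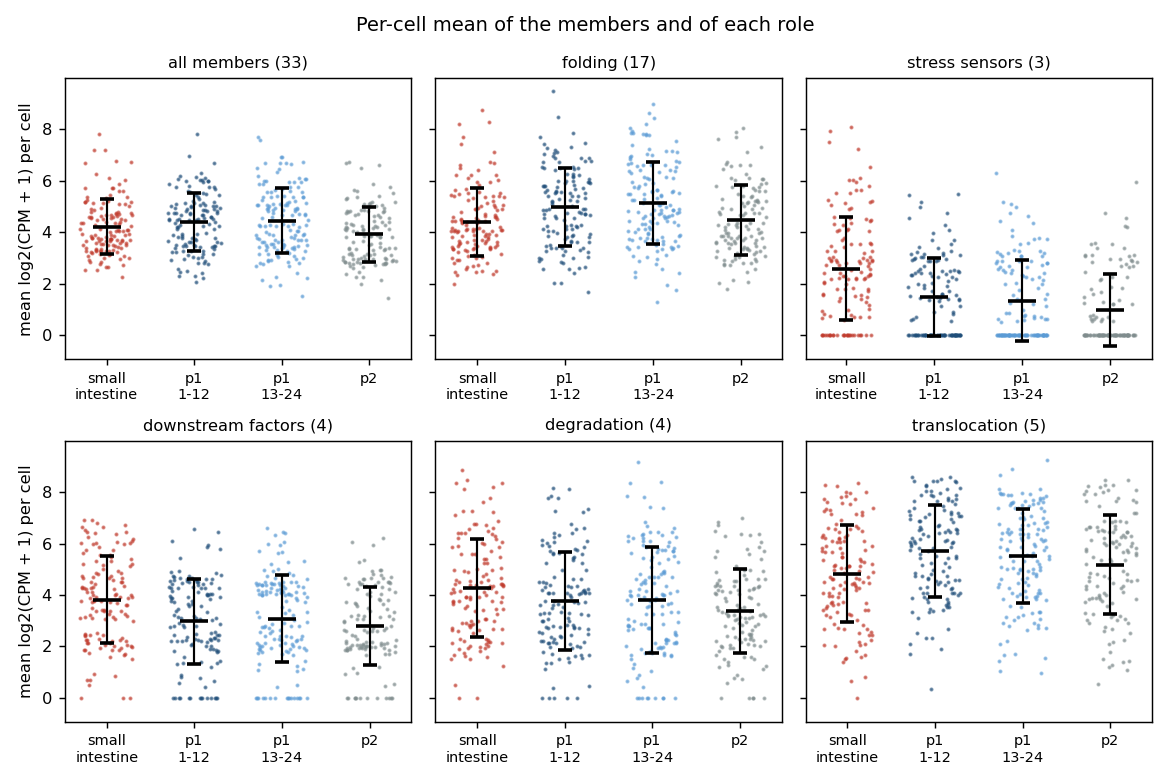
Each point is 1 kept cell of the small intestine or of a spleen set (p1 1-12 is p1 left and p1 13-24 is p1 right), and the vertical axis is the mean of log2(CPM + 1) over the genes of a role, with the number of genes in the panel title. Thick ticks are means and bars are 1 SD over cells. The means over all members lie between 3.92 and 4.44, while the sensor mean is 2.59 in the small intestine and 0.98 to 1.49 in the spleen sets.

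Gene by gene, 31 of the 33 members had a mean of at least 10 CPM over kept cells, with Ern1 and Trib3 below it. Of these 31, the small intestine mean was above all 3 spleen sets for 9 members and below all 3 for 13. Over the 8385 genes at that level the same held for 23.6% and 45.8%, so neither share of the members (29.03% and 41.9%) stood far from the background. A log2 ratio of at least 1, taken as log2 of the mean CPM plus 1 in the small intestine over that in the spleen, was reached by 3 of the 31 (background 6.51%), and a ratio of -1 or less by 0 (background 17%). The median ratio was -0.27 over members and -0.23 over all genes, so a member at -0.23 lay at the middle of these libraries. Against p2 alone the median of the members was 0.13 and that of all genes -0.23. No member was read in every cell of any set, so the lowest cell was at 0 for each of them and cells of both tissues overlapped for every member.

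**Figure D2:**
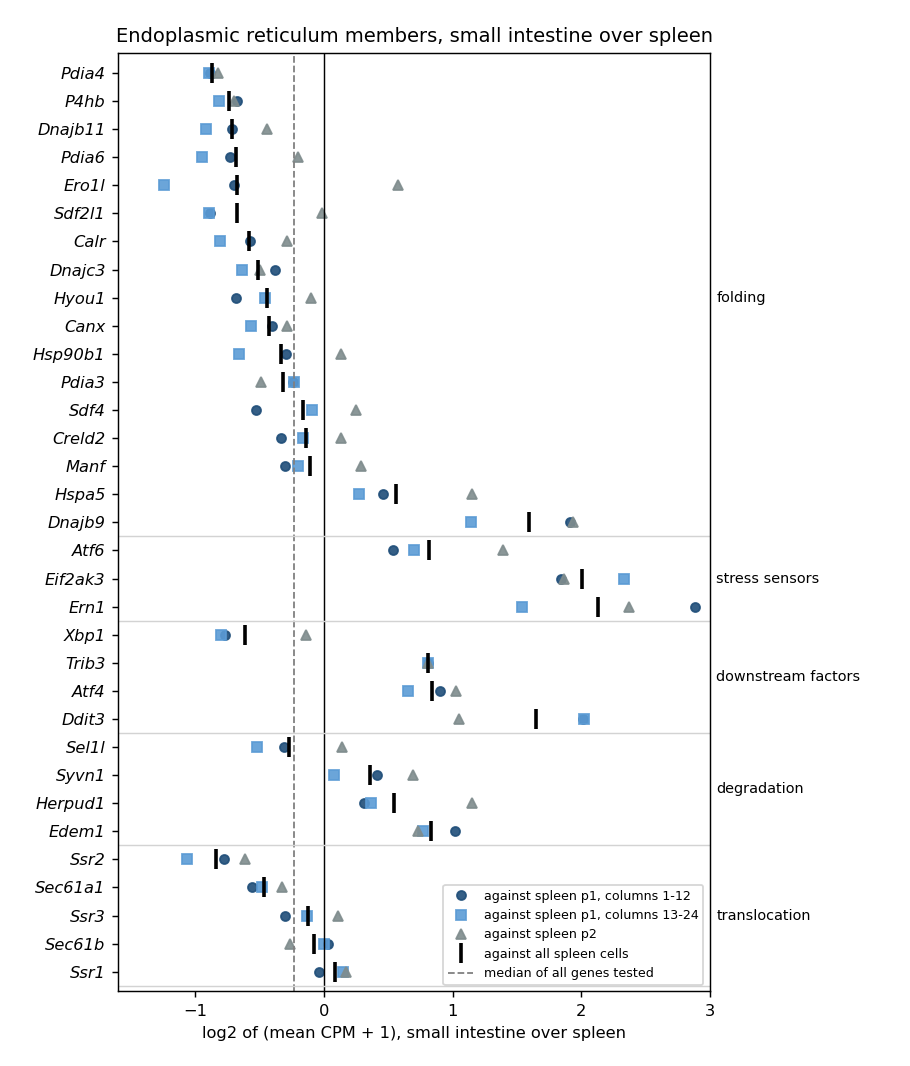
Log2 ratio of mean CPM + 1, small intestine over spleen, for each of the 33 members by role (horizontal axis, log2 scale). Symbols show the ratio against each of the 3 spleen sets, black ticks that against all spleen cells, and the dashed line the median of all genes tested at -0.23. Dnajb9, Eif2ak3, Ern1 and Ddit3 lie above 1 against every spleen set, and Ero1l and Hsp90b1 change side with the set chosen.

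The sensors were all higher in the small intestine. Eif2ak3, the PERK kinase, averaged 51.5 CPM in the small intestine against 13.6, 9.43 and 13.4 CPM in p1 left, p1 right and p2, the order kept from here on. It was read in 36.03% of small intestine cells (95% exact binomial interval 27.98 to 44.7%) and 11.7% of spleen cells (8.74 to 15.3%). The small intestine lay above every spleen set by a log2 ratio of 1.85 to 2.33. Ern1, the IRE1 kinase and nuclease, averaged 22.8 CPM against 2.21, 7.16 and 3.59 CPM, with a read in 27.9% of cells of the small intestine (20.6 to 36.3%) and 5.99% of those of the spleen (3.87 to 8.77%). A single cell gave 43.99% of the Ern1 reads of the spleen. That cell raises the spleen mean and so lowers the log2 ratio of 2.13, while the shares of cells count it like any other. Atf6, the sensor that is itself a membrane-bound transcription factor, averaged 191.9 CPM against 131.6, 117.7 and 72.5 CPM, with a log2 ratio of 0.82. With cells thinned to 200000 reads, the shares of cells with a read were 33.6% and 11.9% for Eif2ak3 and 23.7% and 4.76% for Ern1, in small intestine and spleen.

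Of the downstream factors, Atf4 and Ddit3 were higher in the small intestine and Xbp1 was lower. Ddit3, which encodes the pro-apoptotic factor CHOP, averaged 102.3 CPM in the small intestine (median cell 25.3, highest 827) against 24.6, 24.4 and 48.8 CPM in the spleen sets, where the median cell was at 0. A Ddit3 read was found in 61.03% of small intestine cells (52.3 to 69.3%) and in 23.7% of spleen cells (19.6 to 28.2%), or in 30.1% of those of p2. Thinned to 200000 reads the shares were 58.8% and 22.5%. Its log2 ratio was 1.65 over all spleen cells and 1.05 against p2, the set nearest to the small intestine. Atf4, the central factor of the integrated stress response, averaged 408.4 CPM (median cell 326.7) against 217.8, 260.1 and 200.5 CPM (median cells 151.5, 222.3 and 165.8), a log2 ratio of 0.84. Xbp1, the factor downstream of IRE1, averaged 200.6 CPM in the small intestine against 343.2, 350.02 and 220.97 CPM, with a log2 ratio of -0.62 that shrank to -0.14 against p2. Trib3, a pseudokinase whose gene is a target of CHOP, was read in 3 small intestine cells (2.21%) and in 0 spleen cells, for which the upper limit is 0.748% of cells, so no difference could be read at this depth.

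**Figure D3:**
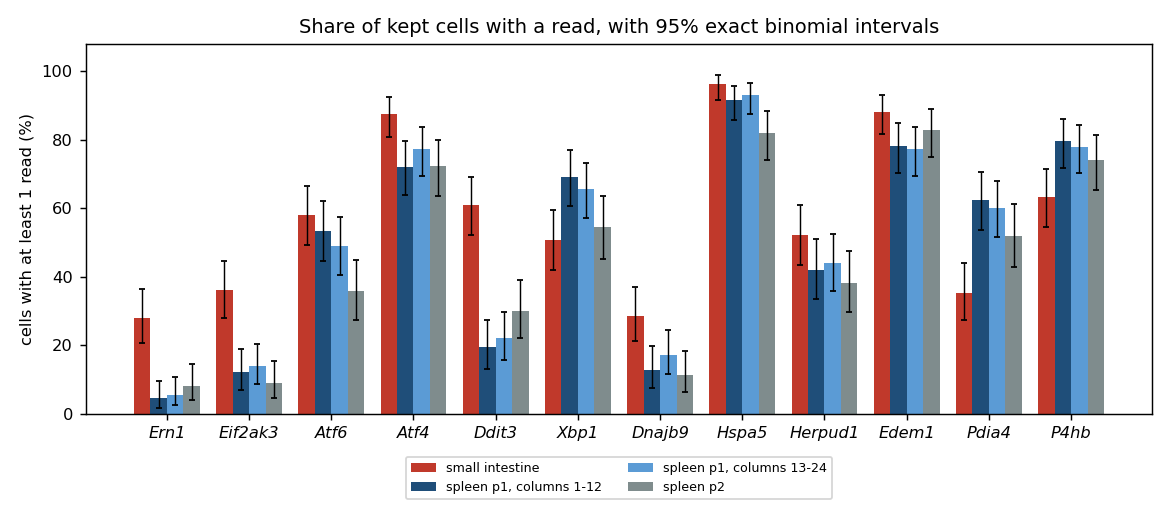
Share of kept cells with at least 1 read (vertical axis, percent) for 12 members in the small intestine and the 3 spleen sets, with 95% exact binomial intervals that cover counting error only. Ern1, Eif2ak3, Ddit3 and Dnajb9 show a read more often in the small intestine than in any spleen set, Ddit3 in 61.03% of cells against 19.5% to 30.1%. Pdia4 shows the opposite, with 35.3% against 52.03% to 62.4%.

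Among 17 folding genes, 2 lay above all spleen sets in the small intestine, 10 below and 5 in between. Over all genes with at least 10 CPM, 23.6% lay above and 45.8% below. The 2 folding genes above were the BiP gene and a partner of BiP. Hspa5 averaged 1282 CPM in the small intestine (median cell 1028, highest 5357) against 933, 1061 and 575.4 CPM in the spleen sets (median cells 680.1, 782 and 446.7). Its log2 ratio was 0.56, but against p1 right it was 0.27, less than the log2 range of 0.88 between the spleen sets. Dnajb9 encodes ERdj4, a co-chaperone that hands misfolded proteins to BiP and holds IRE1 inactive. It averaged 61.5 CPM against 15.6, 27.3 and 15.3 CPM, a log2 ratio of 1.59, with a read in 28.7% of cells of the small intestine (21.3 to 37.1%) and 13.97% of those of the spleen (10.7 to 17.7%).

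The protein disulfide isomerases, which form and rearrange disulfide bonds, were all lower in the small intestine. Pdia4 averaged 122.3 CPM against 226.7, 228.1 and 217.8 CPM in the spleen sets, a log2 ratio of -0.87 that hardly moved between sets (-0.88, -0.89 and -0.83). It was read in 35.3% of small intestine cells (27.3 to 43.9%) and in 58.4% of spleen cells (53.4 to 63.2%). P4hb averaged 226.4 CPM against 363.3, 399.3 and 367.7 CPM, a ratio of -0.74. Pdia6 averaged 117.9 CPM against 196.9, 229.1 and 135.8 CPM, and Pdia3, the isomerase that works with the lectin chaperones, 764 CPM against 902, 900 and 1071 CPM. Their ratios were -0.68 and -0.32. Ero1l, the oxidase that recharges these isomerases, averaged 36.5 CPM against 59.7, 87.8 and 24.1 CPM and so lay within the spleen sets.

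The lectin chaperones, which hold glycoproteins during folding, were lower as well. Calr averaged 253.2 CPM in the small intestine against 377.7, 443.9 and 309.1 CPM, a log2 ratio of -0.59. Canx averaged 283.5 CPM against 375.1, 420.6 and 346.6 CPM, a ratio of -0.43 that came to 0.08 once cells with markers of other cell types were left out. Its median cell was at 60.6 CPM in the small intestine and at 257.9 to 276.5 CPM in the spleen sets. Hsp90b1, the ER form of HSP90, averaged 414.96 CPM against 510.9, 657 and 378.7 CPM and lay within the spleen sets.

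Of the other helpers of BiP, Sdf2l1, Hyou1, Dnajb11 and Dnajc3 were lower and Manf and Creld2 lay within the spleen sets. Sdf2l1, which works with BiP and its co-chaperones, averaged 31.3 CPM in the small intestine against 58.9, 59.03 and 31.6 CPM, so its log2 ratio of -0.67 came to -0.01 against p2. Hyou1, a nucleotide exchange factor of BiP, averaged 32.1 CPM against 52.3, 44.6 and 34.6 CPM. Manf, a secreted stress-induced protein, averaged 106.4 CPM against 131.6, 122.8 and 87.1 CPM, and Creld2, also stress-induced, 42.4 CPM against 53.6, 47.5 and 38.6 CPM. Dnajb11 and Dnajc3, co-chaperones of BiP, had ratios of -0.72 and -0.51.

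Of the 4 degradation genes, 3 lay above all spleen sets, beside 23.6% of all genes. ER-associated degradation moves misfolded proteins back to the cytosol for destruction. Herpud1, which assembles its ubiquitin ligase complex, averaged 174.4 CPM in the small intestine against 140.5, 135.4 and 77.9 CPM, a log2 ratio of 0.54. Edem1, which marks misfolded glycoproteins, averaged 406.6 CPM (median cell 326.3) against 199.9, 238.5 and 245.2 CPM (median cells 96.6, 68.7 and 82.9), a ratio of 0.83. Syvn1, the ubiquitin ligase HRD1, had a ratio of 0.36, and that of its adaptor Sel1l was -0.27, within the spleen sets. Of the 5 translocation genes, Ssr2 (-0.84) and Sec61a1 (-0.46) lay below all spleen sets, and Sec61b, Ssr1 and Ssr3 within them. Of all genes, 45.8% lay below.

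Members with an ERSE or ERSE-II did not move as a block. Of the 10 members with such an element, 3 (Hspa5, Herpud1 and Syvn1) lay above all spleen sets, 5 (Calr, Canx, Pdia6, Dnajb11 and Dnajc3) below and 2 (Hsp90b1 and Creld2) within. Over all genes with at least 10 CPM, 23.6% lay above and 45.8% below, so these counts stood near the background. The median log2 ratio of the 10 members was -0.38. Of the 16 matched members at 10 CPM or more without either element, 5 lay above, 5 below and 6 within, with a median of -0.15. The printed stretches of Hspa5 and Pdia6 hold the same ERSE letters, and the ratios of the genes were 0.56 and -0.68.

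Most other folding and glycosylation genes were also lower in the small intestine. Of 14 further folding genes with at least 10 CPM, 9 lay below all spleen sets and 2 above, and the farthest were Prdx4, an ER peroxidase (6.47 CPM against 47.7 CPM in the spleen), and Txndc5, a disulfide isomerase (44.9 against 134.6 CPM). Of 15 genes of N-glycosylation, 11 lay below and 0 above, with Rpn1, a subunit of the oligosaccharyltransferase, at 79.7 against 186.7 CPM. Of 17 further translocation genes, 12 lay below and 1, Sec11c of the signal peptidase, above. Of 21 genes of transport between ER and Golgi, 12 lay below and 3 above. Degradation was again more even, with 5 of 17 further genes above and 5 below. Os9, a lectin that recognises misfolded glycoproteins, averaged 284.6 against 153.5 CPM, and Edem3 29.7 against 15.6 CPM. The shares of all genes were 45.8% below and 23.6% above, as already given.

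For the integrated stress response, in which ATF4 acts, the counts were close to those of all genes. Of 20 further genes of it with at least 10 CPM, 4 lay above all spleen sets and 9 below, beside 23.6% and 45.8% of all genes. The 4 genes with the ratios largest in size, named for their values, went both ways. Ppp1r15a, which encodes GADD34, the phosphatase subunit that restores translation, averaged 325.4 CPM in the small intestine against 42.1 CPM in the spleen, a log2 ratio of 2.92. The other 3 were lower: Slc7a5, an amino acid transporter, averaged 3.79 against 43.5 CPM, Psat1, of serine synthesis, 34.2 against 155.4 CPM, and Shmt2, of mitochondrial one-carbon metabolism, 28.7 against 89.5 CPM. Of 11 cytosolic or mitochondrial chaperones, 10 lay below all spleen sets and 0 above, with a median ratio of -0.90, and the mitochondrial Hspa9 was the farthest at 48.1 against 301.5 CPM.

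Immediate early genes moved with the tissue beside Ddit3, Dnajb9 and the sensors. Of 13 such genes, a list added after the values of the members were seen, 12 had at least 10 CPM. Of these 12, 9 lay above all spleen sets and 2 (Egr1 and Zfp36) below, beside 23.6% and 45.8% of all genes. The median log2 ratio of the 12 was 1.09. Junb averaged 1421 CPM in the small intestine against 285.02 CPM in the spleen, Btg2 874 against 151.1 CPM, and Dusp1 1221 against 251.8 CPM. Within a set, the mean of these genes and Ddit3 had a Spearman rho across cells of -0.06 in the small intestine and of 0.03, 0.08 and -0.07 in the spleen sets. For Ern1 the values were 0.17, 0.09, 0.12 and 0.08, for Dnajb9 0.15, 0.10, 0.05 and 0.04, and for Eif2ak3 -0.14, -0.07, 0.05 and -0.03. The paper's methods free intestinal lymphocytes with EDTA and collagenase, followed by a Percoll gradient, and describe no digestion for the spleen. Cell handling therefore went with tissue and cannot be told apart from it, and its part in the differences was not tested.

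Kept cells whose B or plasma cell, myeloid or epithelial markers summed to over 100 CPM numbered 56 in the small intestine and 36, 44 and 24 in the spleen sets. Without them 10 of 31 members lay above all spleen sets and 12 below, beside 23.8% and 43.7% of all genes. The sensor mean of the small intestine then exceeded that of the spleen by 1.23, the mean of the downstream factors by 0.90 and the degradation mean by 0.53, and the folding difference was -0.36. The log2 ratio of Ern1 went from 2.13 to 1.28, while those of Eif2ak3, Ddit3 and Dnajb9 were 1.70, 1.55 and 1.49.

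The relation of the programme to Il10 was weak in the spleen and near 0 in the small intestine. Il10 averaged 2366 CPM in the small intestine against 1954, 1921 and 826 CPM. Across kept cells the Spearman rho of the module mean with Il10 was -0.05 in the small intestine and 0.17, 0.22 and 0.23 in the spleen sets. The cells of a set share a plate and differ in depth and in the number of genes detected, and with reads and genes per cell held constant the partial rho was 0.00, 0.21, 0.20 and 0.18. In cells with an Il10 read only, the rho was -0.03 in the small intestine and 0.08, 0.21 and 0.13 in the spleen sets. The difference between tissues was not tested. Of 31 members, 5 had a rho above 0 with Il10 in all 4 sets (background 9.14% of 8383 genes) and 1, Pdia4, below 0 in all 4 (background 7.98%). The 5 were Hspa5, Calr, Sdf4, Atf6 and Ssr1, and their values in the small intestine were at most 0.13.

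Sdf4, a calcium-binding protein of the secretory pathway, had the highest rho with Il10 among the members in a spleen set, 0.35 in both p1 right and p2, with 0.16 in p1 left and 0.01 in the small intestine. It averaged 1753 CPM in the small intestine against 2524, 1867 and 1477 CPM. In GENCODE M21 the gene lies 0.233 kb from Tnfrsf4, which encodes the costimulatory receptor OX40, on the same strand. Tnfrsf4 averaged 2024 CPM over kept cells, and its rho with Sdf4 was 0.37 in the small intestine and 0.29, 0.39 and 0.43 in the spleen sets. With the mean of the other members Sdf4 had a median rho of 0.02. Whether reads of Tnfrsf4 were counted for Sdf4 was not tested. Without Sdf4, the rho of the module mean with Il10 was -0.05, 0.16, 0.21 and 0.21. When members were summed as a share of reads, the rho with Il10 was -0.02 in the small intestine and 0.21, 0.28 and 0.28 in the spleen sets. Without Sdf4 that share gave -0.02, 0.17, 0.14 and 0.10, so the fall was smallest in p1 left among the spleen sets and largest in p2.

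The module mean was higher in dividing cells, together with the number of genes detected. Over all cells that passed the depth limit, its Spearman rho with Mki67, a proliferation gene, was 0.39 in the small intestine and 0.26, 0.37 and 0.43 in the spleen sets. Cells called S or G2M exceeded G1 cells by 1.30, 0.97, 0.94 and 0.89 in module mean. The median count of genes detected was 4569, 4313, 4395 and 4195.5 in S or G2M cells and 3102.5, 3331, 3290 and 3264 in G1 cells. The module mean had a rho of 0.73, 0.78, 0.75 and 0.83 with genes per cell, and Mki67 one of 0.54, 0.42, 0.50 and 0.54. With reads and genes per cell held constant, the partial rho of module mean and Mki67 was -0.01, -0.12, -0.01 and -0.05.

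**Figure D4:**
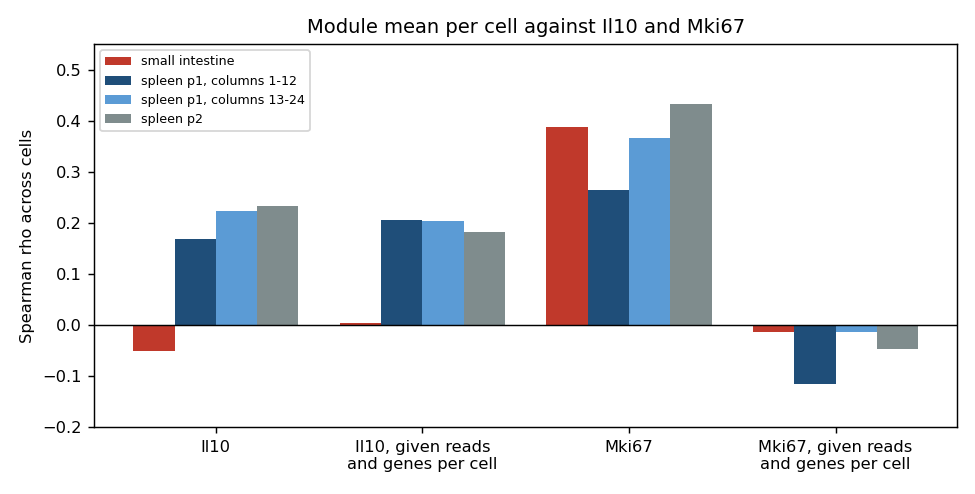
Spearman rho across cells (vertical axis) between the module mean and Il10 in kept cells, and between the module mean and Mki67 in all cells that passed the depth limit, in the small intestine and the 3 spleen sets, as found and with reads and genes per cell held constant. The values for Mki67 go from 0.26 to 0.43 to between -0.12 and -0.01, and those for Il10 in the spleen sets stay between 0.17 and 0.23.

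The summed share of reads of the members showed little of this. They took 0.857% of the reads in S or G2M cells of the small intestine and 0.843% in its G1 cells, and 1.01%, 0.984% and 0.738% against 0.955%, 0.949% and 0.748% in the spleen sets. Sdf4, which weighs on that sum, averaged 1064 CPM in S or G2M and 1753 CPM in G1 cells of the small intestine. Counting each member alike, the median log2 ratio of mean CPM, S or G2M over G1, was 0.18 in the small intestine and 0.18, 0.05 and 0.09 in the spleen sets, against -0.02, -0.10, -0.09 and -0.10 over all genes. In the same order 20, 25, 22 and 20 of the 31 members lay above the median of all genes, a line that by definition splits all genes evenly. Of 31 members, 18 had a rho above 0 with Mki67 in all 4 sets (background 42.8%), and 1, Sdf4, below 0 in all 4 (background 3.34%). Hsp90b1 had a rho of 0.34, 0.28, 0.25 and 0.44, and its mean was 660 CPM in S or G2M cells against 414.96 CPM in G1 cells of the small intestine, and 981 against 510.9 CPM, 949.6 against 657 CPM and 614 against 378.7 CPM in the spleen sets. Sdf2l1 had a rho of 0.33, 0.27, 0.36 and 0.26. Hspa5 was level, with 1218 CPM in S or G2M cells against 1282 CPM in G1 cells of the small intestine.

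Pairs of members were correlated across cells more than pairs of genes that passed the same limit on detection, though weakly. Those genes were not matched to the members for level. In kept cells the module mean had a rho with genes per cell of 0.64 in the small intestine and 0.72, 0.71 and 0.78 in the spleen sets. No pair value held genes per cell constant. Over 28 members read in at least 25% of kept cells, the median rho over all pairs was 0.07 in the small intestine and 0.09, 0.10 and 0.08 in the spleen sets, against 0.01 to 0.02 over the pairs of 5243 genes. The pairs with the highest median over sets were Hspa5 with Calr (0.26, 0.34, 0.37 and 0.13), Calr with Canx (0.28, 0.32, 0.32 and 0.17) and Pdia6 with Xbp1 (0.25, 0.35, 0.43 and 0.14). Against the mean of the other members, Calr and Hspa5 had a median rho of 0.43 over sets, Sdf2l1 0.42 and Xbp1 0.37. Of the other genes that lay above all spleen sets, Herpud1 had 0.22, Atf4 0.18, Syvn1 0.15, Atf6 0.14, Edem1 0.04 and Ddit3 -0.01, and Dnajb9, Eif2ak3, Ern1 and Trib3 were read in too few cells to enter. Pairs of members with an ERSE or ERSE-II had a median rho of 0.08 to 0.13 over sets, and pairs of folding genes without one 0.06 to 0.14.

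Outside the list, the 8 genes whose level followed the module mean most closely were Dut, Ran, Eif5a, Tfdp1, Pkm, Snrpd1, Ptma and Nhp2l1, by the median Spearman rho over the sets of kept cells. Values ran from 0.46 for Dut to 0.40 for Nhp2l1, over 4075 candidate genes with a median of 0.09. None of them is an ER chaperone. Genes detected per cell, with which the module mean had a rho of 0.64 to 0.78 over the same sets, were not held constant here. Whether these genes follow the members apart from that number was not tested. In the small intestine alone the values were lower, from 0.07 for Ptma to 0.32 for Eif5a.

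Within the spleen, p2 had the lowest module mean and the lowest Il10 level. Hspa5 averaged 575.4 CPM there against 933 and 1061 CPM on p1, and Ero1l 24.1 CPM against 59.7 and 87.8 CPM. In p1 left, the 85 cells with a Foxp3 read had a module mean of 4.41 and the 48 without one 4.36. The 8 cells of p2 with a Foxp3 read lay higher, at 5.30 against 3.83 in the others.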

How the data were processed

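Single cells were sequenced by SMART-seq2, which reads full-length cDNA without molecular identifiers. The authors aligned paired-end reads with STAR, and the values they deposited are raw counts for each gene and cell. No column was left unused. The counting tool and annotation are not given in the sources used here. The builds named in the study's methods and in the submitters' processing notes (mm10) differ, so positions come from RefSeq alone. Sets of 2 plates were defined by the plate and well of the labels.

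Cells of low depth were removed (log reads or log genes under the median of the tissue by over 3 median absolute deviations), then those that cyclone from scran 1.30.0 placed in S or G2M. CPM was computed over gene rows without the reporter row. Levels were averaged over cells, and ratios used a pseudocount of 1 CPM, which understates those of low genes. No doublet caller was run, since cells were sorted singly. No pair of columns was identical.

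Each tissue is 1 sample, so no p-value was computed. Intervals (95%, Clopper-Pearson) cover counting error only, since PCR copies are counted as well. A share of 0 was bounded at 3 cells of the total. The members, lists and settings were chosen with earlier results of these data known. Named are the members by role, up to 4 genes of each further list with the largest ratio of 1 sign against all 3 spleen sets, and the 8 genes most like the module mean. Tnfrsf4, the immediate early genes and some members beyond that rule were named after their values were seen. Functions were tested on simulated data. Alternatives were other filters, pseudocounts, scalings, depths and spleen sets.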

Additional observations from a re-analysis of the deposited data

How the results depend on the processing

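No paired analysis was possible because each tissue is 1 sample and no result comes from a test. An alternative was said to move a value when it shifted it by more than 1 SD over the spleen sets, or over the 4 sets for a correlation. The small intestine minus the spleen for the module mean was 0.29 with p2 spleen cells alone, and its sign was also positive with TMM scaling (0.04), with scran size factors (0.07) and in cells without a Foxp3 read (0.06), so it has no stable direction. With p2 alone the folding difference was -0.066, that of the sensors 1.61, of the downstream factors 1.02, of degradation 0.89 and of translocation -0.35. A pseudocount of 0.1 CPM gave 1.95 for sensors and 1.201 for downstream factors, and 10 CPM gave 0.72 and 0.51. Members read in at least 25% of cells gave 1.11 for downstream factors. The median rho with Mki67 over sets, 0.38, was 0.25 in cells with an Mki67 read, 0.16 in G1 cells, -0.030 given reads and genes per cell, 0.080 with members summed as a share of reads and 0.17 with that share without Sdf4. The median rho with Il10, 0.20, was 0.11 in cells with an Il10 read. The shares of reads were chosen after seeing the data, as was leaving out Sdf4 or cells with markers of other cell types. Relative to the median gene, 10 members lay above all spleen sets and 9 below (34.3% and 34.7% of all genes). Across the alternatives run, 9 to 11 members lay above and 9 to 13 below. The shares of all genes ran from 19.4% to 34.3% above and from 21.7% to 47.1% below. Against p2 alone the ratio changed sign for 7 members: Hsp90b1, Ero1l, Manf, Creld2, Sdf4, Sel1l and Ssr3. Relative to the median gene it did so for 5 (Manf, Creld2, Sdf4, Sec61b and Ssr3), and without cells holding other markers for 3 (Canx, Manf and Creld2). Depth limits the members read in few cells, above all Trib3 and Ern1. On p2, tissue and well position cannot be told apart, and in all sets neither can tissue and the way cells were isolated.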
